A study of Mus musculus with 46 samples.

Results

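The p53 target genes examined here were 8 genes chosen by name from the known transcriptional program of the tumor suppressor p53, Cdkn1a, Mdm2, Ccng1, Perp, Pmaip1, Bax, Trp53inp1 and Psrc1. A probe set was paired with 7 of the 8, which were followed among 9329 genes tested. No probe set was paired with Bax, and Bax and the p53 transcript itself were not analysed here. For each gene the probe set with the highest mean over 46 arrays was read, in units of log2 GC-RMA value, and all 7 passed the filter on low values (log2 over 4 in at least 3 arrays).

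The arrays held 1 primary mammary tumor or 1 normal mammary gland each, 41 tumors of 8 genetically engineered mouse models and 5 glands of pregnant FVB females. Per the study's methods the tumors came from individual mice, and nothing in the labels said more of how the glands relate, so their spread may be partly technical. Of the models, 3 were grouped as p53-deficient (17 tumors). In C3TAg tumors (n = 5, FVB) the C3(1) promoter drives SV40 T/t-antigens, and large T antigen is known to bind and sequester p53. The p53-/- tumors (n = 7, Balb/C) arose in transplants from p53 fl/fl;MMTV-cre mice. The Brca1-/-p53+/- tumors (n = 5, 129B6/FVB) came from BRCA1 fl/fl;p53+/-;MMTV-cre mice, which by genotype keep 1 p53 allele in the germ line, and loss of that allele in the tumors was not analysed here. The comparison class was 24 tumors of 5 FVB models in which the MMTV promoter, active in mammary epithelium and at some other sites, drives an oncogene with no engineered change of p53: MMTV-Hras (n = 5), MMTV-H2N, which carries Her2/neu (n = 5), MMTV-C-Myc (n = 4), MMTV-PymT (n = 6) and MMTV-Wnt (n = 4). All FVB tumors outside C3TAg belonged to the MMTV class and both other strains to the p53-deficient class, so that strain and p53 status cannot be told apart over all 17 tumors. Over FVB arrays alone C3TAg also differs from the MMTV models in promoter and transgene, so p53 status cannot be told apart from these.

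The protein p53 is a transcription factor that is kept scarce by Mdm2, an E3 ubiquitin ligase whose own gene is a p53 target, and that is stabilized after DNA damage or oncogene activation. It binds a pair of adjacent half-sites in DNA and turns on genes that halt the cell cycle (Cdkn1a, which encodes the CDK inhibitor p21) or commit the cell to apoptosis (Pmaip1, which encodes the BH3-only protein Noxa). Many of these genes also answer to factors other than p53, among them the p53 relatives p63 and p73, and p63 is the main known activator of Perp in stratified epithelia.

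As a check of the labels, Myc was at 13.48 ± 0.32 (SD, n = 4) in MMTV-C-Myc tumors against means of 8.64 to 10.46 in the other 8 groups. Erbb2, the mouse gene of Her2, was at 7.72 ± 0.26 (n = 5) in MMTV-H2N tumors, below C3TAg (8.40) and MMTV-Hras (7.78), so this probe set did not mark the Her2/neu model. Brca1 was at 7.36 ± 1.07 (n = 5) in Brca1-/-p53+/- tumors, inside the range of means of the other models, which checks nothing where a probe set lies outside the deleted part. Mean correlation between arrays of a group was 0.79 in Brca1-/-p53+/- tumors, the lowest of the 9 groups, against 0.85 to 0.98 elsewhere. A score of 22 epithelial and junction markers (the mean of their z-scores over the 46 arrays) singled out 4 tumors, Brca1-/-p53+/- 2, 3 and 4 at -1.33, -2.30 and -2.84 and MMTV-Wnt 3 at -2.43, whereas every other array was at -0.58 or above. Those 4 tumors stand apart in several of the genes below, so results that rest on them are also given without them, a choice made after the values were seen. In the comparison of p53-deficient with MMTV tumors 15.9% of all genes tested were called higher and 12.0% lower. Fibroblast markers were called higher for 11 of 13 genes and lower for 0, with scores of -0.89 to 1.72 and of -1.59 to 1.68 in the 2 classes. Of macrophage markers 3 of 10 were called higher and 0 lower, with scores of -1.36 to 1.89 and of -1.75 to 2.10, and of milk genes 0 of 7 were higher and 4 lower, with scores of -1.40 to 0.79 and of -1.20 to 1.20. The part of these cells in the results below was not tested. In bulk tissue fewer cells of a type and less RNA per cell cannot be told apart.

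Comparing p53-deficient with MMTV tumors asked whether the targets of p53 are lower where p53 is missing, sequestered or, in Brca1-/-p53+/- mice, reduced to 1 germ-line allele. They did not move in a single direction. In the fit of both classes (limma, adjusted over 9329 genes, called at adjusted p under 0.05), 1 of 7 members was higher in p53-deficient tumors, the apoptosis gene Pmaip1, and 2 were lower, the cyclin gene Ccng1 and the desmosome gene Perp. Among all genes tested 15.9% were called higher and 12.0% lower, so the members' counts are near the background. The other 4 members (Cdkn1a, Psrc1, Mdm2 and Trp53inp1) were not called. The median difference of the 7 members was -0.58 on the log2 scale beside 0.06 over all genes. When tumors of a model were treated as correlated (model as a random block, correlation 0.31), 0 of 7 members were called (limma), with adjusted p = 0.101 for Pmaip1, 0.107 for Ccng1 and 0.260 for Perp and unadjusted p of 0.00222, 0.00263 and 0.0370 for these 3 genes alone, and 0.525% of all genes were called in either direction.

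**Figure D1:**
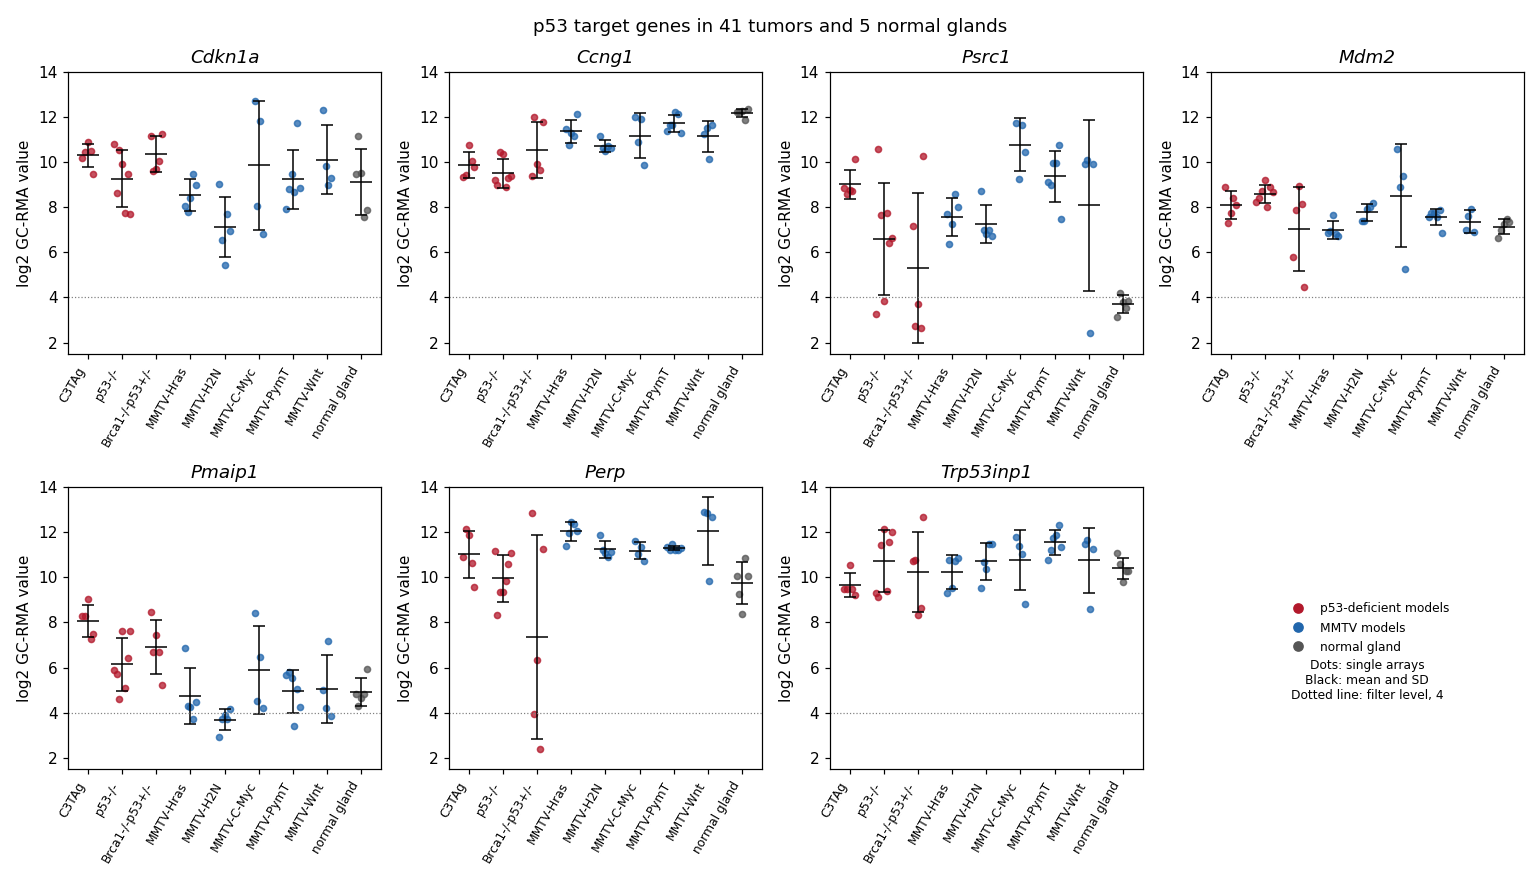
Log2 GC-RMA values (y axis) of the 7 measured p53 target genes in each array, by tumor model and in normal gland (x axis), with the mean and SD of each group in black. Pmaip1 was higher in p53-deficient tumors (6.93 ± 1.30) than in MMTV tumors (4.81 ± 1.34), Ccng1 was lower (9.92 ± 0.91 against 11.25 ± 0.64), and single tumors stand far from their group in Perp, Psrc1 and Mdm2.

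Cdkn1a, the gene of p21, which halts the cell cycle by inhibiting cyclin-dependent kinases, was at 10.17, 10.45, 10.89, 10.49 and 9.47 in C3TAg tumors and at 11.16, 9.60, 9.71, 10.06 and 11.26 in Brca1-/-p53+/- tumors. In p53-/- tumors it ran from 7.69 through a median of 9.48 to 10.78. Among MMTV tumors it spanned 5.44 to 12.71, with both ends of the range outside that of the p53-deficient tumors. The highest values of all belonged to MMTV-C-Myc 1 (12.71) and MMTV-Wnt 1 (12.33), and MMTV-C-Myc 3 was at 11.81 while MMTV-C-Myc 2 and 4 were at 8.07 and 6.83. MMTV-H2N tumors were the lowest group, at 9.03, 6.56, 5.44, 7.70 and 6.93. The p53-deficient mean was 9.89 ± 1.06 (SD, n = 17) and the MMTV mean 8.90 ± 1.81 (n = 24), a difference of 0.98 ± 0.48 (SE) that was not called (limma, adjusted p = 0.117). It was called with adjusted p = 0.0376 without the MMTV-C-Myc model, 0.0474 without the MMTV-Wnt model and 0.0481 without MMTV-C-Myc 1 alone. Of the p53-deficient tumors 14 of 17 lay above the MMTV median. In the order of group means, from Brca1-/-p53+/- (10.36) and C3TAg (10.29) down to MMTV-Hras (8.54), no neighbours were further apart than the larger of their SDs, and only the step to MMTV-H2N (7.13 ± 1.34, n = 5) exceeded it.

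The Cdkn1a promoter is shown because it holds one of the few near-complete p53 sites among the promoters that could be read. In the RefSeq promoter set (GRCm38.p6, 250 bases before to 50 after each start) 4 of the 7 measured members had an entry, Cdkn1a, Ccng1, Mdm2 and Psrc1. They were searched on both strands for the p53 half-site consensus of 10 letters, which reads the same on both strands, and for a full site, meaning 2 half-sites with no bases between them and at most 1 mismatch over 20 letters. A half-site was found in 8.36% and a full site in 0.0883% (29) of 32851 promoters. Matches are in capitals, 5′ to 3′, in the promoter of the upstream Cdkn1a start (chr17:29090729-29091028, plus strand), where the full site runs from -51 to -32 from the start and a further half-site from -73 to -64:
Cdkn1a: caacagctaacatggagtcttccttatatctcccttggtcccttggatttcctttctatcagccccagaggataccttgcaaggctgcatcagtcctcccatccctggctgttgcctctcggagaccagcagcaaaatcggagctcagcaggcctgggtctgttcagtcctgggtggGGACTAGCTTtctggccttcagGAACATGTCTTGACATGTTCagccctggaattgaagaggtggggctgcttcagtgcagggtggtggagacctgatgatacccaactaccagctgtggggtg
The promoter of the other Cdkn1a start (chr17:29093519-29093818) held neither. A match is a run of letters and not a measured binding site.

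Ccng1, which encodes cyclin G1 and has long been known as induced by p53 in mouse, showed the narrowest spread of the genes called. It was at 9.32, 9.43, 10.75, 10.03 and 9.77 in C3TAg tumors, and in p53-/- tumors it ran from 8.88 through a median of 9.29 to 10.44. In Brca1-/-p53+/- tumors it was at 9.36, 12.00, 9.91, 9.66 and 11.80, so that tumors 2 and 5 of that model lay in the upper MMTV range. The MMTV tumors ran from 9.88 (MMTV-C-Myc 4) through a median of 11.30 to 12.21. Of the p53-deficient tumors 10 of 17 lay below every MMTV tumor and 15 of 17 below the MMTV median. The difference was -1.33 ± 0.24 (SE), 2.52-fold lower (limma, adjusted p = 0.000118). All 3 p53-deficient model means lay below all 5 MMTV model means, a pattern that 3.30% of all genes tested showed and that Perp shared. Over FVB arrays alone, C3TAg against the MMTV tumors, the difference was -1.39 (adjusted p = 0.00113), and without the 4 tumors of low junction score it was -1.51 (adjusted p = 1.8e-05). All 3 Ccng1 probe sets were lower, by 1.33, 1.22 and 1.44 on the log2 scale, with adjusted p of 0.000146, 0.00164 and 0.000363 over 14843 probe sets.

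The Ccng1 promoter (chr11:40755237-40755536, minus strand) is shown beside that of Cdkn1a because it too held a full site, from -195 to -176 from the start, in a gene that was called lower where Cdkn1a was not called:
Ccng1: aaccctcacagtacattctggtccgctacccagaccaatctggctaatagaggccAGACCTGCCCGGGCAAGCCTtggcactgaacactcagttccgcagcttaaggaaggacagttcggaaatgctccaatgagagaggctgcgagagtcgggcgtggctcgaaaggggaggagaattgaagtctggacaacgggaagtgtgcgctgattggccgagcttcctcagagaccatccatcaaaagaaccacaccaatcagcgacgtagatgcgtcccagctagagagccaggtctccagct
The full sites of both genes carried 1 mismatch to the consensus.

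Psrc1, which encodes a spindle-associated proline and serine rich protein and is p53-responsive in mouse cells, was low in normal gland, at 3.12, 4.21, 3.79, 3.55 and 3.83. C3TAg tumors were at 8.87, 8.56, 8.78, 8.73 and 10.12. In p53-/- tumors the values ran from 3.27 through a median of 6.63 to 10.58. Brca1-/-p53+/- tumors 1 and 5 were at 7.16 and 10.25, whereas tumors 2, 3 and 4 were at 2.73, 3.70 and 2.64. MMTV-C-Myc tumors were the highest group, at 11.73, 9.27, 11.64 and 10.46. In MMTV-Wnt tumors the values were 9.90, 10.10, 2.41 and 9.91, with tumor 3 the lowest of all 46 arrays. The classes overlapped over almost their whole range. The difference between classes was -1.65 ± 0.72 (SE) and was not called (limma, adjusted p = 0.0806), whereas with all 41 tumors and equal weight for each model it was called at -1.64 (adjusted p = 0.0303). Its size depended on the tumors compared, since it was -1.08 (adjusted p = 0.173) without the 4 tumors of low junction score and 0.44 (adjusted p = 0.748) over FVB arrays only. It was called at -1.92 (adjusted p = 0.0250) without MMTV-Wnt 3, at -1.88 (adjusted p = 0.0450) without p53-/- 2 and at -1.86 (adjusted p = 0.0454) without Brca1-/-p53+/- 5. With a score of 21 proliferation markers as covariate it was -2.47 (adjusted p = 0.00485). Those markers had been called higher in p53-deficient tumors for 4 of 21 genes and lower for 0, beside 15.9% and 12.0% of all genes. Their scores ran from -2.60 to 1.57 there and from -1.18 to 0.87 in MMTV tumors. Their part in the Psrc1 values was not tested beyond that fit.

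Mdm2, the ubiquitin ligase that limits p53 and is induced by it, was at 8.90, 7.28, 7.75, 8.39 and 8.09 in C3TAg tumors and ran from 7.99 through a median of 8.66 to 9.21 in p53-/- tumors. Brca1-/-p53+/- tumors were at 5.79, 7.89, 8.93, 8.15 and 4.44, and tumor 5 was the lowest of all arrays. In MMTV-C-Myc tumors the values were 10.56, 8.88, 9.39 and 5.24, so this model held the highest tumor and the lowest tumor of the MMTV class. The other 20 MMTV tumors lay between 6.71 and 8.21. The class difference was 0.37 ± 0.34 (SE, limma, adjusted p = 0.433), and it was -0.05 (adjusted p = 0.944) without the p53-/- model. The second Mdm2 probe set, with the lower mean, was called higher in p53-deficient tumors by 0.57 ± 0.19 (SE, adjusted p = 0.0209 over 14843 probe sets). The Mdm2 promoter read here (chr10:117710709-117711008, minus strand) held 1 half-site, from -186 to -177, and no full site, and neither Psrc1 promoter held a match. Sequence outside these windows was not searched, nor were sites with bases between the half-sites, so a full site elsewhere in either gene would be missed.

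Pmaip1, the gene of Noxa, which promotes apoptosis by binding Mcl-1, was higher in p53-deficient tumors. It was at 8.27, 8.27, 9.06, 7.26 and 7.49 in C3TAg tumors and at 8.48, 6.69, 7.43, 6.69 and 5.21 in Brca1-/-p53+/- tumors. In p53-/- tumors it ran from 4.59 through a median of 5.91 to 7.64. MMTV-H2N tumors were the lowest group, at 2.93, 3.71, 3.88, 3.74 and 4.17, with 4 of 5 under the filter's log2 value of 4. In the other MMTV models most tumors lay between 3.40 and 5.79, and 4 stood higher, MMTV-C-Myc 1 (8.40) and 3 (6.46), MMTV-Wnt 3 (7.20) and MMTV-Hras 1 (6.89). All 17 p53-deficient tumors lay above the MMTV median of 4.28, and 2 of them above every MMTV tumor. The difference was 2.12 ± 0.41 (SE), 4.34-fold (limma, adjusted p = 0.000257). That fold depends in part on low MMTV values. All 3 p53-deficient model means lay above all 5 MMTV means, as for 4.96% of all genes tested. The difference was 3.26 (adjusted p = 0.000154) over FVB arrays only and 2.22 (adjusted p = 0.000323) without the 4 tumors of low junction score, and leaving out any 1 of the 41 tumors kept it between 1.98 and 2.27.

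Perp, a membrane protein of desmosomes that takes part in p53-dependent apoptosis, was lower in p53-deficient tumors, with 3 tumors far below the rest. Brca1-/-p53+/- tumors were at 12.85, 3.95, 6.35, 2.41 and 11.24, and the low values were those of the 3 tumors with low junction scores. C3TAg tumors were at 10.90, 12.13, 11.89, 10.65 and 9.56, and p53-/- tumors ran from 8.32 through a median of 9.85 to 11.16. MMTV tumors ran from 9.82 (MMTV-Wnt 3, also of low junction score) through a median of 11.37 to 12.90, and MMTV-PymT tumors were tightly grouped (11.29 ± 0.10, n = 6). The difference was -2.04 ± 0.59 (SE), 4.11-fold lower (limma, adjusted p = 0.00842). Without the 4 tumors of low junction score it was -0.99 (adjusted p = 0.0133) and without the whole Brca1-/-p53+/- model -1.14 (adjusted p = 0.00464), while over FVB arrays only it was -0.52 (adjusted p = 0.322). Of the p53-deficient tumors 7 of 17 lay below every MMTV tumor, 4 of them p53-/- or C3TAg tumors of usual junction score.

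Trp53inp1, a stress-induced cofactor that acts with p53 in cell cycle arrest and cell death, was at 9.48, 9.50, 10.57, 9.49 and 9.21 in C3TAg tumors, the lowest group. In p53-/- tumors it took low values of 9.14 to 9.40 in 3 tumors and 11.43 to 12.14 in the other 4. Brca1-/-p53+/- tumors were at 10.74, 10.75, 8.33, 8.66 and 12.66, the last being the highest of all arrays, and MMTV tumors ran from 8.59 (MMTV-Wnt 3) through a median of 11.13 to 12.34. The difference was -0.58 ± 0.36 (SE) and was not called (limma, adjusted p = 0.221), and over FVB arrays only it was -1.19 (adjusted p = 0.0509).

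**Figure D2:**
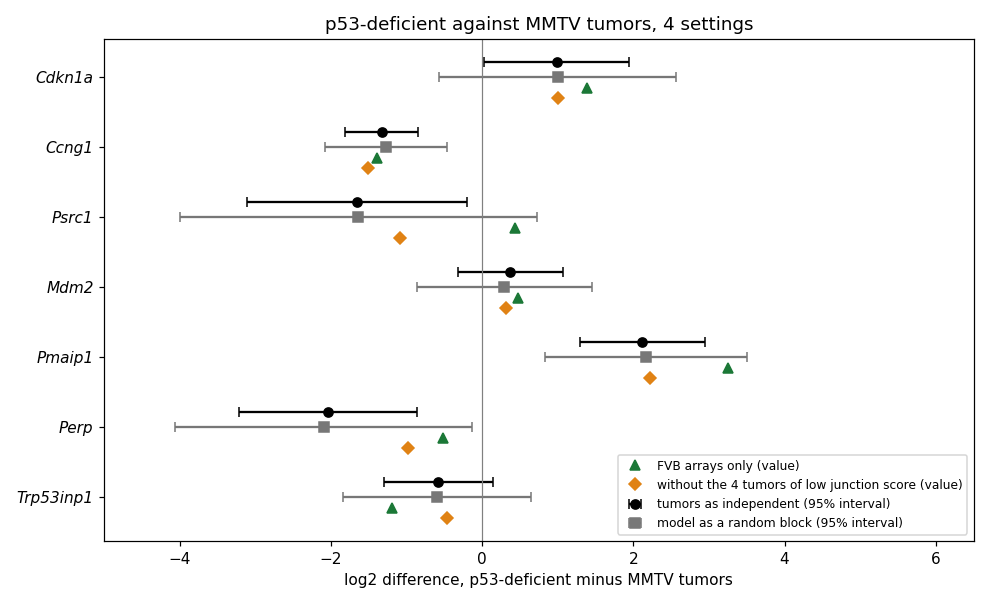
Log2 difference of p53-deficient minus MMTV tumors (x axis) for each of 7 p53 target genes (y axis), with the 95% interval when tumors are taken as independent or the model is a random block, and the value alone over FVB arrays or without 4 tumors of low junction score. Pmaip1 lies right of 0 and Ccng1 left of 0 in all 4 settings, while Psrc1 moves from -1.65 to 0.44 and Perp from -2.04 to -0.52 over FVB arrays.

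The next question was how the same genes stood against normal gland. Each class was taken as the equal-weighted mean of its models in a fit of all 9 groups, and all these comparisons share the 5 glands. In p53-deficient tumors 2 members were higher and 1 lower than in gland, with 47.5% of all genes called in either direction. In MMTV tumors 1 was higher and 1 lower, with 36.6% called. Psrc1 was higher in both classes, by 3.27 ± 0.97 (SE, 9.62-fold, limma, adjusted p = 0.00509) in p53-deficient tumors and by 4.91 ± 0.93 (30.1-fold, adjusted p = 5.69e-05) in MMTV tumors. Since GC-RMA places unexpressed probe sets at low values, both folds depend on the level of 3.70 ± 0.40 (SD, n = 5) in gland.

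Ccng1 was at its highest in normal gland, at 12.22, 12.22, 12.26, 11.87 and 12.35, and it was lower in both classes. The difference was -2.21 ± 0.34 (SE, 4.63-fold lower, limma, adjusted p = 1.23e-06) in p53-deficient tumors and -0.96 ± 0.33 (1.95-fold lower, adjusted p = 0.0190) in MMTV tumors. The gland mean exceeded that of MMTV-PymT, the next group, by more than their spread. Pmaip1 was higher than gland in p53-deficient tumors by 2.13 ± 0.56 (4.36-fold, adjusted p = 0.00186), whereas in MMTV tumors the difference was -0.05 ± 0.54 (adjusted p = 0.953, 95% interval -1.14 to 1.04). The gland values of Pmaip1 were 4.84, 4.31, 4.63, 4.83 and 5.95, inside the range of the MMTV tumors.

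Perp was at 10.08, 9.27, 8.39, 10.86 and 10.07 in gland, with a mean of 9.73 that lay below all 24 MMTV tumors. The MMTV difference of 1.83 ± 0.80 (SE) was not called (limma, adjusted p = 0.0700), and it was called at 1.98 without MMTV-Wnt 3 (adjusted p = 0.0450). The p53-deficient difference was -0.28 ± 0.83 (adjusted p = 0.801), and it changed sign to 1.28 (adjusted p = 0.00659) without the tumors of low junction score. Cdkn1a spread widely in gland, at 9.46, 11.16, 9.52, 7.55 and 7.88, and neither class differed from it by a called amount (0.86 ± 0.68 and -0.14 ± 0.66, adjusted p = 0.310 and 0.895). Mdm2 (0.77 ± 0.49 and 0.50 ± 0.47) and Trp53inp1 (-0.20 ± 0.54 and 0.40 ± 0.52) were not called in either class. Normal glands carried high adipocyte marker scores of 1.74 to 2.25 against -0.92 to 0.73 in MMTV tumors and -0.77 to 2.48 in p53-deficient tumors, proliferation scores of -2.15 to -1.40, and milk gene scores of 1.36 to 1.44. Skeletal muscle marker scores had a median of 1.87 in gland (0.13 to 2.23), -0.69 in p53-deficient tumors (-0.77 to 2.48) and -0.57 in MMTV tumors (-0.76 to 1.04). The part of these in the differences from gland was not tested.

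Taken model by model against gland, 10 of 56 member comparisons were higher and 4 lower. In C3TAg tumors (48.0% of all genes called) Psrc1 was higher by 5.31 ± 1.20 (SE, limma, adjusted p = 0.000344) and Pmaip1 by 3.16 ± 0.69 (adjusted p = 0.000258), and Ccng1 was lower by 2.32 on the log2 scale. In p53-/- tumors (42.7% called) Mdm2 was higher by 1.45 ± 0.56 (adjusted p = 0.0327) and Psrc1 by 2.89 ± 1.11 (adjusted p = 0.0325), and Ccng1 fell by 2.68. The Mdm2 call was lost with quantile normalization (adjusted p = 0.0796) and with each array centred on its median (0.0890), the latter also taking that of Psrc1 (0.0601). It was also lost without p53-/- 4 or 6 or gland 1 or 2 (1.33 to 1.41, adjusted p of 0.0516 to 0.0780), and that of Psrc1 without p53-/- 2, 3 or 5 or gland 1, 3 or 4 (2.23 to 2.92, 0.0519 to 0.0954). In Brca1-/-p53+/- tumors (32.1% called) Pmaip1 was higher by 1.99 ± 0.69 (adjusted p = 0.0254) and Ccng1 fell by 1.64, while the Psrc1 difference of 1.60 ± 1.20 was not called. The Pmaip1 call was lost without Brca1-/-p53+/- 1 or 3 or gland 2 or 3 (1.59 to 1.92, adjusted p of 0.0507 to 0.0928).

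Psrc1 was the member called higher in all 5 MMTV models, from 3.55 ± 1.20 (SE) in MMTV-H2N (35.1% of all genes called) through 3.87 in MMTV-Hras (28.1%), 4.38 in MMTV-Wnt (27.8%) and 5.67 in MMTV-PymT (32.6%) to 7.08 ± 1.27 in MMTV-C-Myc (31.7%), with adjusted p between 4.48e-05 and 0.0186 (limma). The MMTV-Wnt difference ran from 3.71 without MMTV-Wnt 2 to 6.27 without MMTV-Wnt 3, above the value of MMTV-PymT. The MMTV-H2N call was lost without MMTV-H2N 1 (3.18, adjusted p = 0.0519). No other member was called higher in an MMTV model. Ccng1 was called lower in MMTV-H2N, by 1.47 on the log2 scale (adjusted p = 0.00579), and in the other 4 models its difference ran from -0.47 in MMTV-PymT to -1.05 in MMTV-Wnt, none of them called. The value in MMTV-H2N lay close to that of -1.64 in Brca1-/-p53+/- tumors. The lowest Cdkn1a difference, -1.98 ± 0.85 in MMTV-H2N, was not called (adjusted p = 0.0655).

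**Figure D3:**
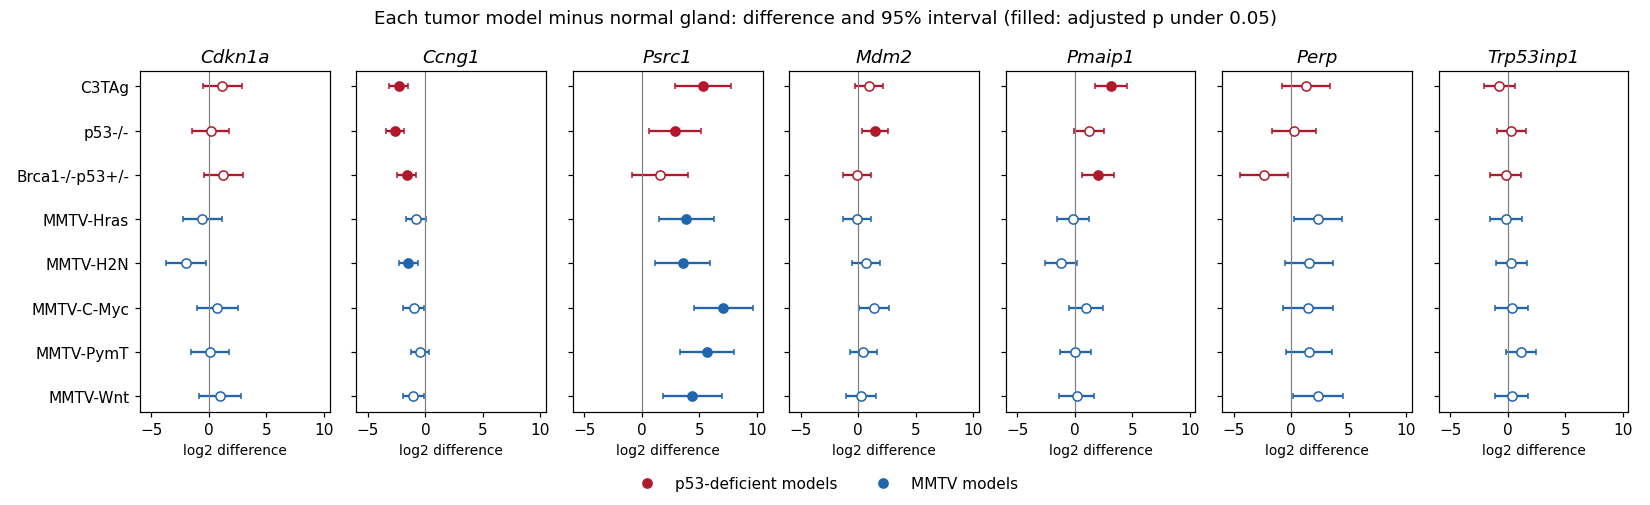
Log2 difference of each tumor model minus normal gland (x axis) with its 95% interval, for 8 models (y axis) and 7 p53 target genes (panels), filled where called. Psrc1 was higher in 7 of 8 models, Ccng1 lower in 4, Pmaip1 higher in C3TAg and Brca1-/-p53+/-, and Mdm2 higher in p53-/- alone.

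Each p53-deficient model was also set against the mean of the 5 MMTV models. Over the 21 member comparisons 4 were lower and 3 higher, the latter all Pmaip1, by 3.21 ± 0.54 in C3TAg (SE, limma, adjusted p = 1.7e-05), 1.28 ± 0.47 in p53-/- (0.0437) and 2.04 ± 0.54 in Brca1-/-p53+/- tumors (0.00649). Background calls in these comparisons were 32.4%, 23.9% and 22.4% of all genes. The p53-/- value was the least stable, since 16 of 41 fits with a tumor left out gave an adjusted p over 0.05 (1.03 to 1.54, the highest adjusted p of 0.137 without p53-/- 4), as did quantile normalization (1.02, adjusted p = 0.107). Ccng1 was lower in C3TAg by 1.36 on the log2 scale (adjusted p = 0.00130) and in p53-/- by 1.72 (adjusted p = 3.39e-05), whereas in Brca1-/-p53+/- its difference of -0.68 ± 0.33 was not called (adjusted p = 0.129). Perp and Psrc1 were called lower only in Brca1-/-p53+/- tumors, with differences of -4.21 ± 0.80 (adjusted p = 0.000366) and -3.31 ± 0.93 (adjusted p = 0.00960). With the tumors of low junction score left out, 2 Brca1-/-p53+/- tumors remained and these differences became 0.33 (adjusted p = 0.831) and -0.28 (adjusted p = 0.936), and the Pmaip1 difference was 2.13 (adjusted p = 0.168). The Psrc1 call was already lost without Brca1-/-p53+/- 2 (-2.67, adjusted p = 0.0618) or 4 (-2.65, 0.0684) alone.

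Differences between the p53-deficient models were tested directly. C3TAg exceeded p53-/- in Pmaip1 by 1.93 ± 0.64 (SE, limma, adjusted p = 0.0367, 14.8% of all genes called), and this call was lost without C3TAg 1, 2 or 3 or p53-/- 1, 2, 3 or 5, each left out in turn, at differences of 1.67 to 1.89 and adjusted p of 0.0545 to 0.113. C3TAg exceeded Brca1-/-p53+/- in Psrc1 by 3.71 ± 1.20 (adjusted p = 0.0211) and in Perp by 3.67 ± 1.03 (adjusted p = 0.00854), with 23.5% of all genes called. The Psrc1 call was lost without C3TAg 5 (adjusted p = 0.0508), Brca1-/-p53+/- 2 (0.0852) or Brca1-/-p53+/- 4 (0.0728), and that of Perp without Brca1-/-p53+/- 2 (2.81, 0.0544) or 4 (2.43, 0.0564). Without the tumors of low junction score the Psrc1 difference was 0.31 (adjusted p = 0.892) and that of Perp -1.02 (adjusted p = 0.264). Between p53-/- and Brca1-/-p53+/- tumors 0 of 7 members were called, against 13.1% of all genes. Unadjusted p were under 0.05 for 3 members there (limma), Mdm2 at 1.55 ± 0.56 (adjusted p = 0.0575), Perp at 2.60 ± 0.95 (0.0635) and Ccng1 at -1.04 ± 0.39 (0.0692). Among the 5 MMTV models Cdkn1a alone was called (limma F test, adjusted p = 0.0316), against 44.4% of all genes, with the MMTV-H2N mean of 7.13 at the lower end and that of MMTV-Wnt, 10.10, at the upper. That call was lost without MMTV-H2N 2, 3 or 5 or MMTV-Wnt 1, each left out in turn.

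The order of the group means differed from member to member. For Ccng1 it ran from gland (12.18 ± 0.18) through MMTV-PymT (11.72 ± 0.38) to p53-/- tumors (9.51 ± 0.64), and past MMTV-PymT no neighbours were further apart than the larger of their SDs. For Psrc1 only the step from MMTV-C-Myc (10.78 ± 1.16) to MMTV-PymT (9.38 ± 1.13) exceeded the spread, with gland last (3.70 ± 0.40). For Perp the steps from MMTV-Hras (12.04 ± 0.42) to MMTV-PymT (11.29 ± 0.10) and from C3TAg (11.03 ± 1.04) to p53-/- (9.96 ± 1.05) did so. No step exceeded it for the other 3 members, where Mdm2 ran from p53-/- (8.59 ± 0.41) to MMTV-Hras (7.00 ± 0.39), Pmaip1 from C3TAg (8.07 ± 0.72) to MMTV-H2N (3.69 ± 0.46) and Trp53inp1 from MMTV-PymT (11.55 ± 0.55) to C3TAg (9.65 ± 0.53).

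Single tumors departed from their model in several members at once. MMTV-C-Myc 1 and 3 were the highest tumors of their model in Cdkn1a, Ccng1, Psrc1, Mdm2 and Pmaip1, while MMTV-C-Myc 4 was the lowest in Cdkn1a, Ccng1, Mdm2, Pmaip1, Perp and Trp53inp1. In MMTV-C-Myc 1 Cdkn1a, Mdm2 and Pmaip1 each exceeded every other MMTV tumor. Brca1-/-p53+/- 5 combined the highest Trp53inp1 (12.66) and Cdkn1a (11.26) of its model with the lowest Mdm2 (4.44) and Pmaip1 (5.21). Brca1-/-p53+/- 2 combined the highest Ccng1 of the p53-deficient class (12.00) with Psrc1 at 2.73, and its proliferation score of -2.60 and adipocyte score of 2.48 lay at the normal gland end of both scales. MMTV-Wnt 3 was the lowest of its model in Cdkn1a, Ccng1, Psrc1, Perp and Trp53inp1 and the highest in Mdm2 (7.94) and Pmaip1 (7.20).

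**Figure D4:**
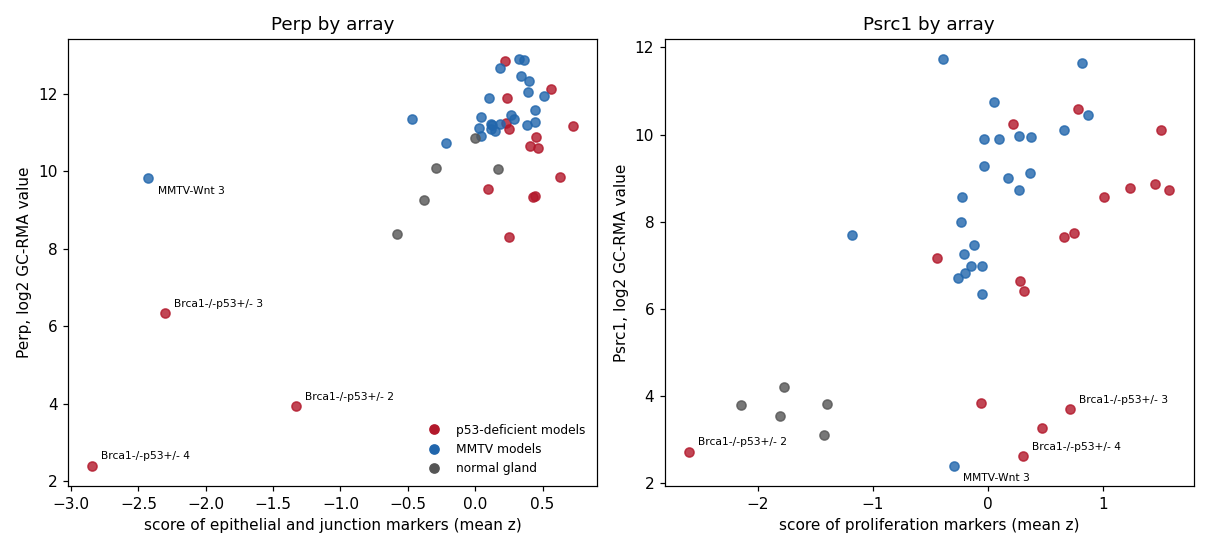
Perp (left) and Psrc1 (right) in log2 GC-RMA value (y axis) in each of 46 arrays against the score of the epithelial and junction markers or of the proliferation markers (x axis, mean z-score), with the 4 tumors of low junction score named. Perp was at 2.41 to 6.35 in the 3 named Brca1-/-p53+/- tumors and at 8.32 or above in every other tumor, and Psrc1 was at 2.41 to 3.70 in all 4. Psrc1 was also low in p53-/- 1 (3.27) and p53-/- 4 (3.86), whose junction scores were 0.72 and 0.43, and in normal gland (3.12 to 4.21).

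Across the 41 tumors the members were only loosely related to each other, as descriptions over tumors that share models. The highest Pearson correlations were 0.57 between Psrc1 and Perp, 0.54 between Ccng1 and Trp53inp1 and 0.48 between Cdkn1a and Pmaip1. The lowest was -0.38 between Ccng1 and Pmaip1, which were called in opposite directions between the classes. Perp and Pmaip1, also called in opposite directions, correlated at -0.24. Both classes were pooled in these values, so differences between the classes are part of them. Cdkn1a and Mdm2, both taken as readouts of active p53, correlated at 0.16.

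The genes most like each member over the 46 arrays were found by Pearson correlation, as a description over arrays that share models and strains. For Cdkn1a they were Phlda3 (0.66), itself a p53 target, Sfn (0.62), which encodes 14-3-3 sigma and is also one, and Gja1 (0.62). For Ccng1 they were the pentose phosphate enzyme gene Tkt (0.77), the peroxisomal thiolase gene Acaa1a (0.76) and Gatd3a (0.73). For Perp they were the tight junction gene Cldn3 (0.80), Klc3 (0.79) and Fzd6 (0.78). For Pmaip1 they were the basonuclin gene Bnc1, Myo9a and Prkg2 (0.78, 0.78 and 0.77). Psrc1 was most like Col9a3 (0.78), Eri2 (0.76) and Bnipl (0.72), Mdm2 like Uhrf1bp1l (0.72), Csnk1g1 (0.68) and Aida (0.66), and Trp53inp1 like Irx3 (0.65), Tmem229b (0.59) and Polb (0.58).

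The wider p53 program moved in both directions too. Of 42 further p53 targets 34 were measured, and 5 (4 besides Plk3, described below) were higher and 6 lower in p53-deficient than in MMTV tumors (limma over 9329 genes), or 14.7% and 17.6% beside 15.9% and 12.0% of all genes. Their median difference was -0.01. When the model entered as a random block, 0 of 34 were called (limma), the lowest adjusted p being 0.0920 for Dram1, and 7 had an unadjusted p under 0.05.

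Of 7 genes of cell cycle arrest 3 were higher, Plk3 among them, and 0 lower, where 15.9% and 12.0% of all genes were called. Groups this small, here and below, were not read as a pattern. Sfn, which holds cells in G2, differed by 1.70 ± 0.54 (SE, limma, adjusted p = 0.0172), with means of 7.25 ± 1.79 (SD, n = 17) and 5.55 ± 1.75 (n = 24). Its means in MMTV-C-Myc (6.75) and MMTV-PymT (6.66) lay above that in Brca1-/-p53+/- (6.61), with MMTV-Hras at 4.19 and MMTV-H2N at 3.91. The kinase gene Plk3 exceeded log2 4 in 4 p53-deficient tumors and in 0 of the 24 MMTV tumors and 5 glands, so that it passed the filter only through the class where it was high, and its means of 3.54 and 2.21 are given as a description and its call supports nothing. Gtse1, which holds p53 in the cytoplasm, differed by 0.66 ± 0.22 (adjusted p = 0.0193, at 4.59 and 3.92). Gtse1 and Sfn were not called with the proliferation score as covariate (adjusted p = 0.0885 and 0.0555).

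Of 10 genes of apoptosis 2 were higher and 2 lower, beside the same 15.9% and 12.0% of all genes. Dram1, a lysosomal membrane protein needed for p53-dependent autophagy, showed the largest difference of the 34, at 9.16 ± 1.07 (SD, n = 17) against 5.89 ± 2.34 (n = 24), or 3.27 ± 0.59 (SE, 9.67-fold, limma, adjusted p = 0.000123). Its model means ran from 8.37 in C3TAg to 9.92 in Brca1-/-p53+/- and from 3.64 in MMTV-H2N to 7.54 in MMTV-Wnt, and normal gland was at 8.62. Dram1 exceeded log2 4 in all 17 p53-deficient tumors but in 17 of 24 MMTV tumors. Its fold thus depends in part on low MMTV values. Over FVB arrays only the difference was 2.48 (adjusted p = 0.0724). Apaf1, the core of the apoptosome, was higher by 1.04 ± 0.24 (adjusted p = 0.00166). Bbc3, which encodes the BH3-only protein Puma, was lower by 0.81 on the log2 scale (adjusted p = 0.000913), with means of 5.47, 5.82 and 5.87 in the p53-deficient models and 5.95 to 7.12 in the MMTV models. Ei24 was lower by 0.62 (adjusted p = 0.00416). The 2 BH3-only genes Pmaip1 and Bbc3 thus differed in sign.

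Of 12 genes of DNA repair, redox control and metabolism 0 were higher and 4 lower, beside the same 15.9% and 12.0% of all genes. The xenobiotic epoxide hydrolase gene Ephx1 was lower by 2.18 on the log2 scale (4.55-fold, limma, adjusted p = 0.000624), with the lowest model mean in p53-/- tumors (6.71). Dcxr, a carbonyl reductase of sugar metabolism, was lower by 2.05 (4.13-fold, adjusted p = 0.000835), with the lowest model mean in C3TAg (4.79). Sesn1, a stress sensor that restrains mTORC1, was lower by 0.67 (adjusted p = 0.0106), and Rrm2b, the p53-inducible ribonucleotide reductase subunit, by 0.66 (adjusted p = 0.0267). For Rrm2b the lowest of all model means was in MMTV-C-Myc (7.04), below the p53-deficient means of 7.32 to 7.95. Over FVB arrays Ephx1 (-1.46, adjusted p = 0.0187) and Dcxr (-3.60, adjusted p = 1.11e-05) were called and Sesn1 and Rrm2b were not (adjusted p = 0.0761 and 0.0587). None of the 3 secreted or membrane targets and neither of the 2 feedback targets, the phosphatase gene Ppm1d and Pml, was called.

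Of 18 genes that act on p53, 14 were measured, and 3 were higher and 0 lower, or 21.4% and 0% beside 15.9% and 12.0% of all genes. Cdkn2a, whose locus encodes p16Ink4a and the Mdm2 inhibitor p19Arf, was at 6.42 ± 2.15 (SD, n = 17) against 2.86 ± 1.58 (n = 24), a difference of 3.56 ± 0.56 (SE, 11.8-fold, limma, adjusted p = 2.36e-05). Its model means were 7.84 in C3TAg, 6.46 in p53-/- and 4.95 in Brca1-/-p53+/- tumors, 2.11 to 3.87 in the MMTV models and 2.39 in gland. The fold again depends on a low level in MMTV tumors. Usp7, the deubiquitinase of Mdm2 and p53, was higher by 0.60 ± 0.15 (adjusted p = 0.00371), and Daxx, which works with Usp7 on Mdm2, by 0.62 ± 0.16 (adjusted p = 0.00364). The MMTV-C-Myc mean of Usp7 (11.13) lay above those of all p53-deficient models (10.93 to 11.11). That of Daxx (8.87) lay above the Brca1-/-p53+/- mean (8.37). When the model entered as a random block, 0 of 14 were called (limma), the lowest adjusted p was 0.0698, that of Cdkn2a, and 3 had an unadjusted p under 0.05. Mdm4, the partner of Mdm2, differed by 0.0049 ± 0.23 (adjusted p = 0.988).

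**Figure D5:**
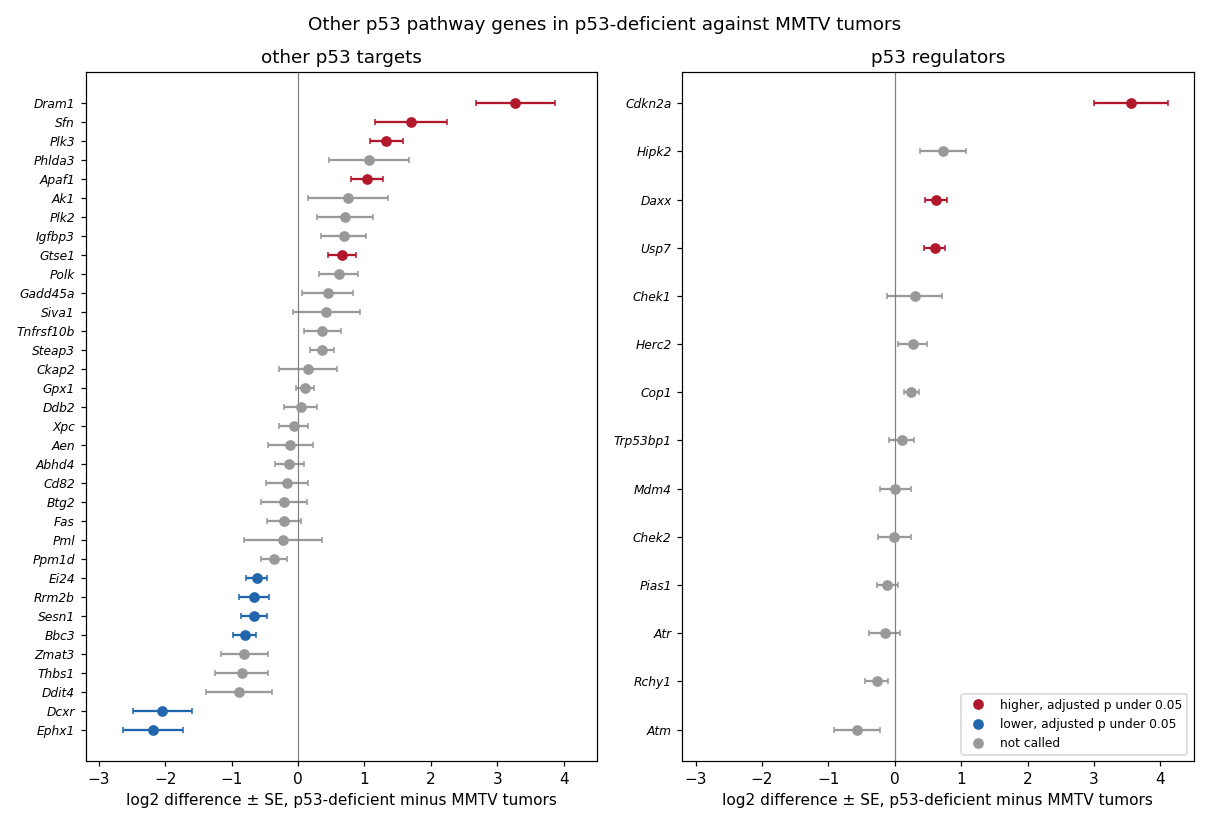
Log2 difference ± SE of p53-deficient minus MMTV tumors (x axis) for 34 further p53 targets and 14 regulators of p53 (y axis), colored where called. The targets spread on both sides of 0, from Ephx1 at -2.18 to Dram1 at 3.27, and Cdkn2a stands at 3.56 among the regulators.

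Against normal gland the further targets were again divided, 13 higher and 9 lower of 34 in p53-deficient tumors and 11 higher and 8 lower in MMTV tumors, where 47.5% and 36.6% of all genes were called in either direction, with medians of 0.26 in both beside 0.20 and 0.16 over all genes. Of the 14 regulators 6 were higher and 0 lower in p53-deficient tumors and 5 were higher and 1 lower in MMTV tumors, and these counts are to be read against the same shares of all genes.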

How the data were processed

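RNA from 41 tumors and 5 normal glands had been hybridised to Affymetrix mouse genome GeneChip arrays, 1 array each. The authors deposited log2 values made with GC-RMA in Partek from GCOS scans, after removing probe sets with MAS5 present or marginal calls in fewer than 3 samples (versions not given in the sources used here). GC-RMA pulls unexpressed probe sets to low values, which widens folds of low genes. Signal above background is not part of the deposited values, so the number of arrays limits the precision.

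The table held 18586 probe sets with 0 missing values, between 1.70 and 15.98, and array medians of 6.48 to 7.48. The platform annotation gave 1 gene for 16962 probe sets, several for 569 and none for 1055, and 16941 of the former were found in RefSeq (GRCm38.p6). Probe sets over log2 4 in at least 3 arrays were kept, and the one with the highest mean stood for its gene, leaving 9329 genes. Tests used limma 3.58.1 (lmFit, eBayes) in R 4.3.3, with statmod 1.5.0 for the random block, and Benjamini-Hochberg adjustment over all genes. The class comparison pooled 17 against 24 tumors, and every other comparison was a contrast in a fit of 9 group means over 46 arrays. Genes were called at adjusted p under 0.05, and intervals are 95%. Promoters and figures were handled in Python 3.11.15 with pandas 2.3.3 and matplotlib 3.10.9. The fits were tested on simulated data with known differences. Those arrays were drawn independently, without correlation within a model, so the test says nothing of calls under the correlation of 0.31.

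The members, the further p53 lists, the marker lists and the comparisons were chosen with earlier results of these data known. Named genes were the members, plus the further targets and regulators called in the class comparison, at most 6 per direction, and Mdm4, Ppm1d and Pml, which were added after their values were seen. Alternatives covered the random block, equal model weights, FVB arrays, a replicate block, quantile and median scaling, the low-value filter, the probe set rule, marker scores as covariates, and leaving out each model or array. Leaving out 4 tumors of low junction score (under -1) was chosen after seeing the data.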

Additional observations from a re-analysis of the deposited data

Results flagged for a closer look

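Within groups of 4 to 7 arrays, 11 of 63 member and group combinations held 1 array far from the rest by Dixon's criterion, where chance gives about 1 in 20. MMTV-Wnt 3 accounted for 3 of the 11, with Psrc1 at 2.41, Perp at 9.82 and Trp53inp1 at 8.59, all below the other 3 tumors of that model. Its Psrc1 value was the lowest of the 46 arrays, and its junction score was -2.43. MMTV-H2N 1 was above its group in Psrc1 (8.72) and in Perp (11.90).

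The other 6 were spread over 4 groups. C3TAg 5 was high in Psrc1 at 10.12 and C3TAg 3 high in Trp53inp1 at 10.57. MMTV-Hras 3 was high in Mdm2 at 7.68 and MMTV-Hras 1 high in Pmaip1 at 6.89. MMTV-PymT 6 was low in Mdm2 at 6.86, and normal gland 4 was low in Ccng1 at 11.87, where the other 4 glands lay between 12.22 and 12.35.

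Of 21 member differences between the p53-deficient models, 3 passed the test of the difference itself (limma, adjusted p of 0.0367, 0.0211 and 0.00854). Pmaip1 was 1.93 higher on the log2 scale in C3TAg than in p53-/- tumors. Psrc1 was 3.71 higher and Perp 3.67 higher in C3TAg than in Brca1-/-p53+/- tumors, and both of these were lost without the tumors of low junction score (0.31 and -1.02). The 3 models also differ in strain, so that model and strain cannot be told apart.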

How the results depend on the processing

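Over all alternatives other than leaving out single arrays, 540 values kept their direction and their side of the threshold, 56 lost and 8 gained a call, and 6 changed sign; with single arrays left out these were 2141, 45, 5 and 9. In the class comparison, where 1 member was higher and 2 lower, the counts were 0 and 0 under the random block. FVB arrays gave 1 lower, equal model weights gave 3 lower (Psrc1, adjusted p = 0.0303), and 2 were higher without MMTV-C-Myc, without MMTV-Wnt and with equal model weights plus a replicate block (Cdkn1a 1.09, adjusted p = 0.0458). Leaving out single tumors gave 1 to 2 higher and 2 to 3 lower. Save for the random block, the share of all genes called in these settings is not given, here and below. Psrc1 turned to 0.44 over FVB arrays and Mdm2 to -0.054 without p53-/- tumors, and the cause was not tested. Each model is of 1 strain and 4 to 7 tumors, and the 2 classes are also the paper's basal and luminal groups, which limits what any class difference can show about p53.

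Without the 4 tumors of low junction score, Perp and Trp53inp1 in p53-deficient tumors against gland turned to 1.28 and 0.29, Perp in Brca1-/-p53+/- against MMTV tumors to 0.33 and Perp in C3TAg against Brca1-/-p53+/- to -1.02. The same setting gave 2 members higher in MMTV tumors than in gland, 18 higher over single models and 3 called among MMTV models, and 1 lower between p53-deficient models, as did quantile and median scaling (1 each against 0). With single arrays left out, members higher in MMTV tumors than in gland numbered 1 to 2 (2 without MMTV-Wnt 3), those called among MMTV models 0 to 2, and those higher or lower between p53-deficient models 1 to 4 and 0 to 1. Cdkn1a and Pmaip1 in MMTV tumors against gland then ran from -0.53 to 0.37 and from -0.22 to 0.21, and Perp in p53-deficient tumors against gland from -0.74 to 0.13 (above 0 without Brca1-/-p53+/- 4).

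The further targets called lower numbered 10 with equal model weights and 3 over FVB arrays. Those higher numbered 3 with the proliferation covariate, without C3TAg and without MMTV-H2N, and 8 without MMTV-Wnt, and both counts were 0 with the random block. Higher regulators numbered 0 with the random block and 5 without MMTV-Hras, and lower ones 1 there, with median scaling, with the proliferation covariate and with the replicate block. Without the share of all genes called beside them, these counts are not read as results about the lists. No strong pairing of arrays by the replicate numbers of the labels was seen. Same-numbered arrays of different groups deviated with a mean correlation of 0.014, beside -0.0031 for arrays of other numbers. Of 46 arrays 11 correlated best with their own number. This check cannot tell a weak pairing from none. The replicate block took the calls of Mdm2 in p53-/- tumors against gland (adjusted p = 0.0502) and of Pmaip1 in p53-/- against MMTV tumors (1.07, adjusted p = 0.113).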
